A study of Homo sapiens with 12 samples.

Results

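The genes described here are 10 transcription factors and regulators of the early response to growth signals: JUN, JUNB, JUND, FOS, FOSL2, ATF3, EGR1, IER2, IER5 and KLF6. They were chosen by gene name from 8843 genes named in the deposited tables, and each had at least 1 m6A peak. N6-methyladenosine (m6A), a methyl mark on adenosines of RNA, was mapped by MeRIP-seq, which enriches methylated fragments with an m6A antibody and reads them against an input library. The resistant group was the trastuzumab-resistant line BT474.TtzmR, and the sensitive group was BT474, the parental human breast cancer line with amplified ERBB2. Both grew in the same medium with serum, and each had 3 pull-down (IP) and 3 input libraries. How resistance was obtained, and whether the resistant line is 1 clone, is not given in the sources used here. The labels do not state that replicates were separate cultures. The permutation p-values thus reflect the spread between libraries alone, which may be technical.

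JUN and FOS proteins bind DNA as dimers, together called AP-1, through a leucine zipper that they share with ATF3. Immediate early genes are switched on by kinases such as ERK and JNK without new protein synthesis, and most of their mRNAs are short-lived. m6A is laid down on pre-mRNA by a complex with METTL3 and METTL14, lies mostly in long exons and near stop codons, and is bound by YTH-domain readers that promote mRNA decay. ERBB2, the target of trastuzumab, signals through the ERK pathway that feeds these genes.

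Letters that match known binding sites in the promoters of these genes are shown as background, since no promoter was measured here, and a match is not evidence of binding. Promoters of all 10 genes were found in RefSeq (GRCh38.p14), as windows that begin 250 bases before the transcript start. The core TGACG of the cyclic AMP response element, searched on both strands, was in the promoters of 7 of the 10 genes (JUN, JUNB, JUND, FOS, FOSL2, EGR1 and IER2) and in 24.6% of all 35116 promoters. The full element TGACGTCA, which contains that core, was in 1 of the 10 and in 1.85% of all promoters. The AP-1 site TGANTCA was also in 1 of the 10, FOSL2, and in 7.71% of all promoters. Within these windows, a CArG box, the site named for serum response factor, was in EGR1 alone among the 10 and in 1.29% of all promoters. Sites more than 250 bases before the start were not searched, so a gene without a match may still have one there. Capitals mark the match in the lines that follow.
JUND, chr19:18281806-18281831, minus strand, 200 bases before the start: ccgcccccaTGACGTCAacccacaag
EGR1, chr5:138465365-138465392, plus strand, 105 bases before the start: ccggtcctgCCATATTAGGgcttcctgc
EGR1, chr5:138465387-138465414, plus strand, 83 bases before the start: tcctgcttcCCATATATGGccatgtacg
FOS, chr14:75278755-75278777, plus strand, 64 bases before the start: ttgagcccgTGACGtttacactc
JUN, chr1:58784157-58784179, minus strand, 123 bases before the start: tctccatggTGACGggcgggccc

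Of the 10 genes, 9 carried a peak in all 6 IP libraries, against 55.9% of the 8353 genes with a peak in any library, and ATF3 carried one in the 3 resistant libraries alone. JUN, JUND, FOSL2, EGR1 and IER2 had a peak that spans coding sequence and 3′ UTR, and so the stop codon, in all 6 lists. That pattern was found in 15.6% of the 8353 genes and in 28% of the 4670 genes with a peak in all 6 libraries. FOS and JUNB had such a peak in 5 lists each, IER5 in 4 and ATF3 in 3. For FOS this rests on shorter isoforms: on its longest listed transcript, every peak was annotated as coding sequence alone. KLF6 had none in any list; its peaks lay within coding sequence and within the 3′ UTR. Averaged over libraries, peaks covered more bases in 9 of these genes than the median of 559.8 bases for genes with a peak in all 6 libraries, the exception being ATF3. Merged over isoforms and libraries, the 10 genes had 21 separate regions, 13 of them present in all 6 libraries.

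Peaks covered more bases in each resistant library than in any sensitive library for JUN, JUND, FOS, ATF3, IER2 and KLF6, and fewer for FOSL2. Of the 8353 genes with a peak, 17.9% had such separate ranges with more bases in resistant cells and 4.47% with fewer. Among genes with a peak in all 6 libraries the shares were 22.3% and 4.69%. JUNB, EGR1 and IER5 had ranges that overlapped. An exact permutation test of 3 against 3 libraries, two-sided, cannot give a p below 0.1, and adjusted over all 8353 genes its smallest value was 0.447. None of the differences in covered bases can therefore pass 0.05. Peak lists were longer in resistant cells, with 30767 to 32638 rows, than in sensitive cells, with 26028 to 29063 rows. Read depth is unknown, and its part in these differences was not tested. Covered bases give the extent of the listed peaks, not the amount of methylated RNA. Transcript levels were not analysed here, and their part in these differences was not tested. In bulk RNA, a difference within each cell and a difference in the share of cells cannot be told apart.

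**Figure D1:**
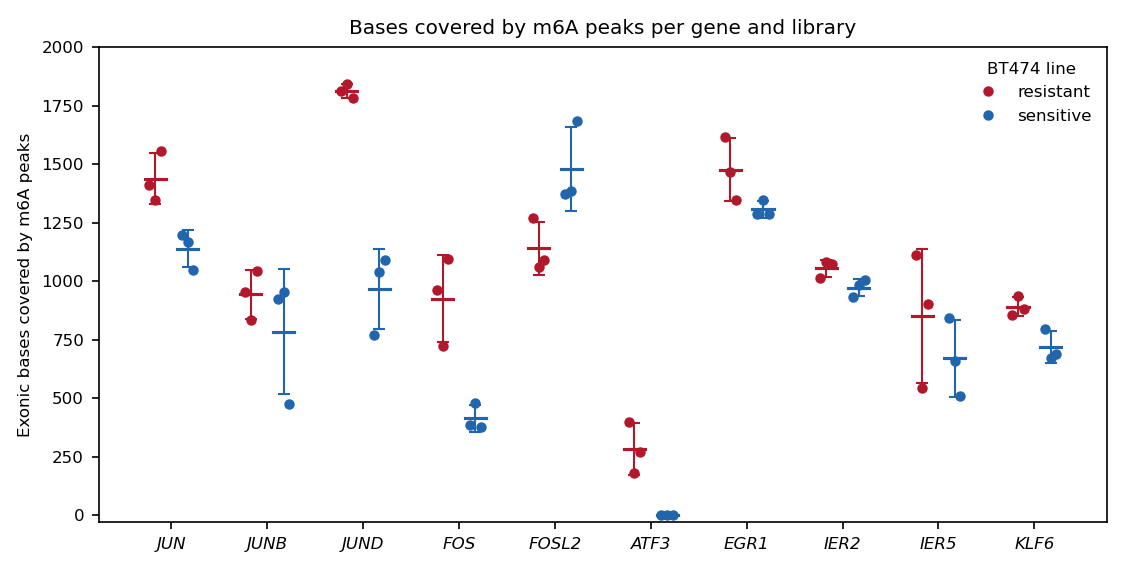
Exonic bases covered by m6A peaks (vertical axis) for each of the 10 genes in 3 resistant and 3 sensitive IP libraries; points are libraries, short lines the mean and bars the SD. The JUND points of resistant cells lie between 1782 and 1840 bases and those of sensitive cells between 772 and 1089, while FOSL2 is the only gene shown whose resistant points all lie under the sensitive ones.

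JUN, the founding AP-1 subunit and a substrate of JNK, carried a long stop codon peak (chromosome 1, 59247003 to 59247960) and a second one near the 5′ end (59248738 to 59249366). Over the gene, 1409, 1348 and 1557 bases were covered in resistant libraries and 1199, 1168 and 1048 in sensitive libraries. The means were 1438 ± 107 bases in resistant and 1138 ± 79.8 bases in sensitive cells (SD, n = 3 each; exact permutation test, p = 0.1, adjusted p = 0.447). Both peaks were wider in every resistant library. The stop codon peak covered 958, 958 and 928 bases in resistant libraries, against 839, 868 and 898 in sensitive libraries. The 5′ peak covered 390, 390 and 629 bases in resistant libraries, against 360, 300 and 150 in sensitive libraries, and reached into the coding sequence in resistant replicate 3.

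By p-value, the stop codon peak of JUN was among the strongest peaks of its lists. Its p was listed as 0 in all 3 resistant lists, where 51, 44 and 47 genes in replicates 1, 2 and 3 had a p of 0. In the sensitive lists the p was 1e-139, 1e-128 and 1e-152, which placed JUN at 2.03%, 1.96% and 1.55% of the genes in the list. The authors' fold enrichments of that peak were 7.98, 6.17 and 6.12 in resistant and 5.24, 5.49 and 6.37 in sensitive lists. The ranges of the fold enrichments overlap.

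JUND, a JUN family member found in most cells at rest, had the largest difference in covered bases of the 10 genes. Its single merged region (chromosome 19, 18390563 to 18392432) covered 1811, 1840 and 1782 bases in resistant libraries, against 772, 1039 and 1089 in sensitive libraries. The means were 1811 ± 29 bases in resistant and 967 ± 170.4 bases in sensitive cells (SD, n = 3 each), a ratio of 1.87 (exact permutation test, p = 0.1, adjusted p = 0.447). Of the JUND transcript of 1870 bases, peaks took up 96.8%, 98.4% and 95.3% in resistant libraries. In sensitive libraries they took up 41.3%, 55.6% and 57.2%, at the 3′ end. The JUND peaks ran over 5′ UTR, coding sequence and 3′ UTR in resistant cells, and over the 3′ UTR and the coding sequence next to it in sensitive cells.

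JUNB, which competes with JUN for partners, had a peak at each end of its transcript. Covered bases were 953, 835 and 1043 in resistant libraries and 924, 954 and 477 in sensitive libraries, so the lines overlapped (exact permutation test, p = 0.6, adjusted p = 0.969). The low value in sensitive replicate 3 came with no peak at the 5′ end (chromosome 19, 12902518 to 12903024). That peak was in 3 resistant and 2 sensitive libraries, and the one over the 3′ end (12903589 to 12904124) in all 6.

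FOS, which cannot form dimers with itself and binds DNA beside a JUN protein, had the largest ratio of covered bases among genes with peaks in both lines. Covered bases, over all 8 listed isoforms (chromosome 14, 75746812 to 75748148), were 961, 724 and 1093 in resistant libraries and 385, 481 and 377 in sensitive libraries. The means were 926 ± 187 bases in resistant and 414 ± 57.9 bases in sensitive cells (SD, n = 3 each), a ratio of 2.23 (exact permutation test, p = 0.1, adjusted p = 0.447). On the longest listed transcript alone, 720, 600 and 750 bases were covered in resistant libraries, against 361, 392 and 360 in sensitive libraries. On that transcript 1 stretch in resistant cells ran from an inner exon through the last coding exon; in sensitive replicates 1 and 2 the same stretch was broken up, and in replicate 3 its last part alone was present. The FOS peaks were of middling rank: the smallest p stood at 32.3%, 42.3% and 27.02% of genes in the resistant lists and at 42.2%, 42.01% and 42.2% in the sensitive lists.

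FOSL2, also called FRA2 and a FOS family member without the strong activation domain of FOS, was the exception. Its peaks covered 1269, 1061 and 1090 bases in resistant libraries, against 1371, 1383 and 1685 in sensitive libraries. The means were 1140 ± 113 bases in resistant and 1479.7 ± 178 bases in sensitive cells (SD, n = 3 each; exact permutation test, p = 0.1, adjusted p = 0.447). One coding region, across an exon junction (chromosome 2, 28631666 to 28634970), was covered over 233, 234 and 234 bases in the sensitive libraries and listed in no resistant library. The authors' fold enrichment there was 2.27, 2.73 and 1.96 in sensitive lists, with p of 3.16e-11, 1.48e-10 and 1.51e-05. The region over the stop codon (28635086 to 28636114) covered 999, 821 and 939 bases in resistant and 957, 969 and 970 in sensitive libraries. The 5′ UTR region (28615755 to 28616024) was present in all 6. A 3′ UTR region of 241 bases was listed in sensitive replicate 3 alone.

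ATF3, a stress-induced factor that often represses its targets, had peaks in the resistant line alone. It was covered over 400, 179 and 269 bases in resistant libraries and had no peak in any sensitive list. A peak in 3 resistant and 0 sensitive libraries was found for 1.78% of the 8353 genes, and the opposite for 0.838%. With a peak asked for in at least 2 libraries of a single line and fewer than 2 of the other, ATF3 was still the only gene of the 10, against 11.2% of genes on the resistant and 5.57% on the sensitive side. One merged ATF3 region (chromosome 1, 212791562 to 212793048) was present in all 3 resistant libraries, over 186, 179 and 208 bases. Its peaks were staggered and overlapped in part only. Those of resistant replicate 1 ended by 212792870, those of replicate 2 lay within 212792752 to 212792930, and those of replicate 3 began at 212792841. The strongest ATF3 peak lay in that merged region in resistant replicates 2 and 3, and in a separate exonic region in resistant replicate 1. In resistant replicate 1 the authors' smallest p, 2.34e-07, belonged to the region at 212792395 to 212792608, with a fold enrichment of 3.03. In resistant replicate 2 it was 3.98e-05, at 212792774 to 212792924, with a fold enrichment of 1.48. In resistant replicate 3 it was 8.71e-07, at 212792841 to 212793048, with a fold enrichment of 1.86. These p-values stood at 61.5%, 78.1% and 64.97% of the genes in their lists. With peaks limited to a p below 1e-05, ATF3 was left in 2 of the 3 resistant libraries.

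**Figure D2:**
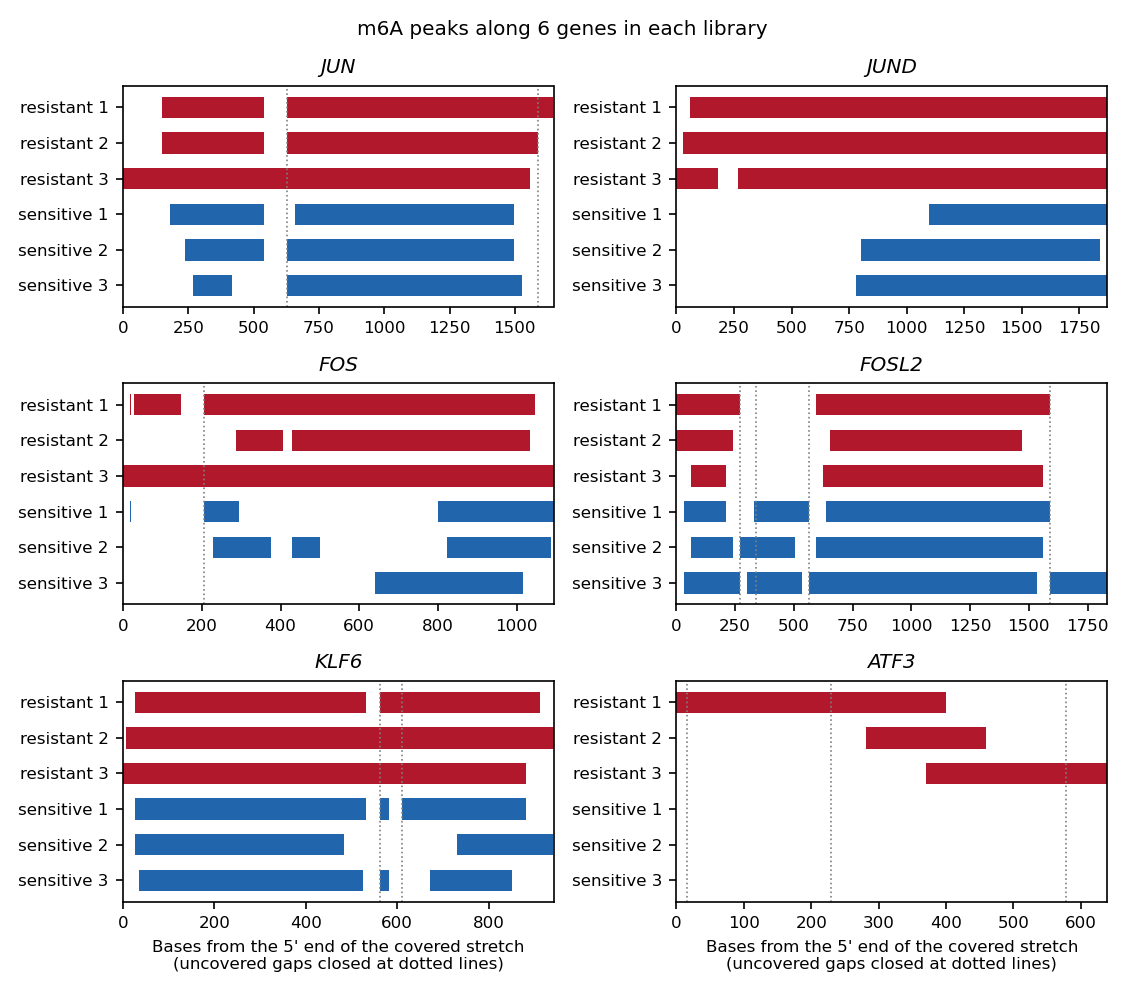
Peaks of JUN, JUND, FOS, FOSL2, KLF6 and ATF3 in each IP library, resistant libraries above sensitive ones; the horizontal axis counts bases from the 5′ end of the stretch covered in any library, with uncovered gaps closed at the dotted lines. JUND is covered over nearly its whole length in resistant libraries, the second FOSL2 block is present in the 3 sensitive libraries alone, and ATF3 has peaks in the 3 resistant libraries alone.

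EGR1, a zinc finger factor whose gene is a known target of serum response factor, had 2 long regions in all 6 libraries. One lay in the coding sequence (chromosome 5, 137802524 to 137803361) and the other over the stop codon (137803391 to 137804048). Covered bases were 1616, 1467 and 1347 in resistant libraries and 1286, 1347 and 1286 in sensitive libraries. The lowest resistant value equals the highest sensitive one, so the ranges touch (exact permutation test, p = 0.2, adjusted p = 0.625). The coding region covered 838, 778 and 778 bases in resistant libraries, against 718, 748 and 718 in sensitive libraries. A short 5′ UTR peak (137801239 to 137801418) came and went, being listed in resistant replicates 1 and 2 and sensitive replicate 2.

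IER2, a short-lived nuclear regulator, had 1 region from coding sequence into the 3′ UTR (chromosome 19, 13264233 to 13265335). It covered 1013, 1080 and 1073 bases in resistant libraries and 931, 983 and 1005 in sensitive libraries (exact permutation test, p = 0.1, adjusted p = 0.447). The means, 1055 ± 36.8 bases in resistant and 973 ± 38 bases in sensitive cells (SD, n = 3 each), differed by 82.3 bases, the smallest difference in means among the genes whose ranges did not overlap. By p, IER2 stood between 1.49% and 2.91% of genes in every list.

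IER5, a cofactor of the heat shock factor HSF1, had the largest spread of the 10 genes among resistant replicates, an SD of 287 bases, beside 165 in sensitive cells (n = 3 each). Covered bases were 1110, 542 and 901 in resistant libraries and 841, 661 and 511 in sensitive libraries (exact permutation test, p = 0.4, adjusted p = 0.764). Its peaks stood between 51.1% and 62.05% of genes in their lists.

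KLF6, a zinc finger factor known as a tumour suppressor, had a coding region (chromosome 10, 3822373 to 3824357) and a 3′ UTR region (3821082 to 3821412) in all 6 libraries. Covered bases were 856, 936 and 882 in resistant libraries and 796, 670 and 689 in sensitive libraries. The means were 891 ± 40.8 bases in resistant and 718 ± 67.9 bases in sensitive cells (SD, n = 3 each; exact permutation test, p = 0.1, adjusted p = 0.447). Every resistant library stood above every sensitive one.

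**Figure D3:**
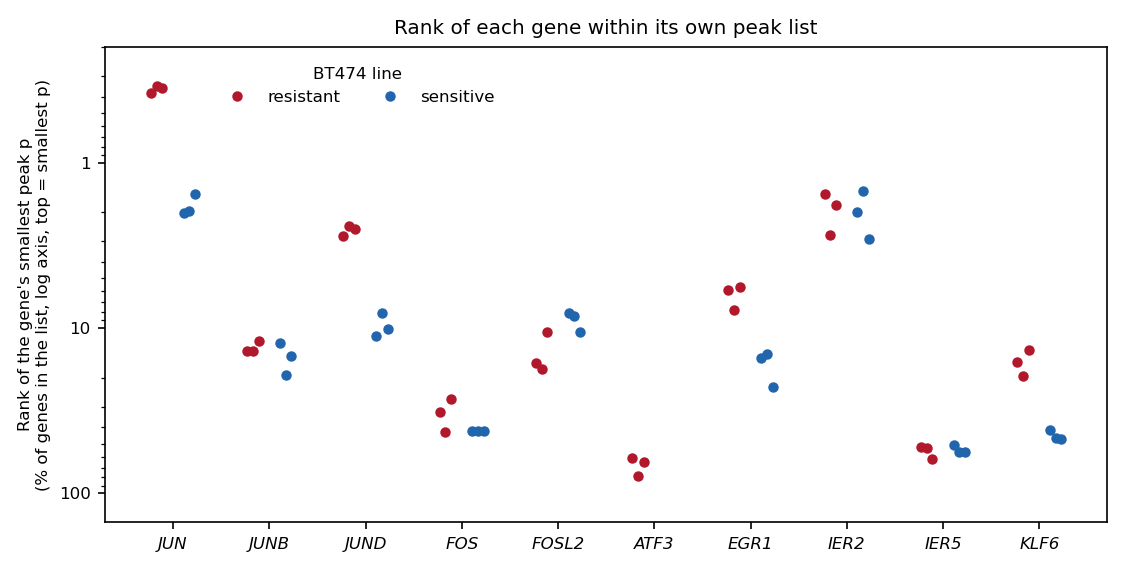
Rank of each gene's smallest peak p within its own list, as a percentage of the genes in that list (log axis, smallest p at the top), for 3 resistant and 3 sensitive IP libraries. JUN and IER2 stand within the top 3% of every list and IER5 near the middle; lists differ in length, so the ranks describe each list and show no change between the lines.

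The authors' comparison of the lines calls a region where p is below 0.05 and the fold of resistant over sensitive cells is at least 1.5 or at most 0.667. None of the 10 genes had a called region. Of the 5553 genes in the authors' deposited table, 14.2% had a region called higher and 2.76% a lower one. It holds 16 rows in 9 merged regions for 7 of these genes; JUN, FOS and ATF3 have no row, although JUN and FOS had peaks in all 6 libraries. Of all genes with a peak in all 6 libraries, 66.7% have a row. The p was below 0.05 in 13 of the 16 rows, against 45.2% of all 17301 rows, so most rows missed the call through their fold. The folds lay below the median of the whole table, 1.25 (0.32 on the log2 scale), in 7 of the 9 regions.

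The deposited folds were small in both directions. JUNB stood highest: the authors' deposited table lists 1.32 for its 3′ region (deposited p = 1.82e-08) and 1.28 for its 5′ region (deposited p = 2.51e-05). The JUND row in the authors' deposited table spans all 1870 bases of the transcript and stood at 1.16 (deposited p = 6.61e-07). IER2 stood at 1.12 for each of the 2 isoforms that have a row in the authors' deposited table. EGR1 stood at 1.10 in the authors' deposited table (deposited p = 0.00245). The folds of JUND, IER2, EGR1 and the stop codon region of FOSL2 are above 1 as deposited and below 1 once divided by the median of the table.

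Among the folds below 1, that of FOSL2 fell on the region that the peak lists show in sensitive cells alone. The coding region of FOSL2 stood at 0.735 to 0.742 over 4 isoforms in the authors' deposited table (deposited p = 0.00363 to 0.00661), and overlapped peaks in 0 resistant and 3 sensitive libraries. That fold is inside the authors' limit of 0.667. After division of every fold by the median it was 0.592 and FOSL2 was called lower, as were 7.35% of genes, while 5.26% were called higher. With the p also adjusted over all rows FOSL2 kept that call, with 3.51% of genes called lower and 2.67% higher. The FOSL2 stop codon region stood at 1.16 in the authors' deposited table, on the other side of 1. KLF6 had folds of 0.853 to 0.876 over 3 isoforms (deposited p = 0.0417 to 0.0794) in the authors' deposited table, for a coding region with peaks in all 6 libraries. The lowest value for these genes in the authors' deposited table was 0.663, in a 3′ UTR region of IER5 (chromosome 1, 181059677 to 181059767) with a deposited p of 0.132 and no overlapping peak in any library.

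**Figure D4:**
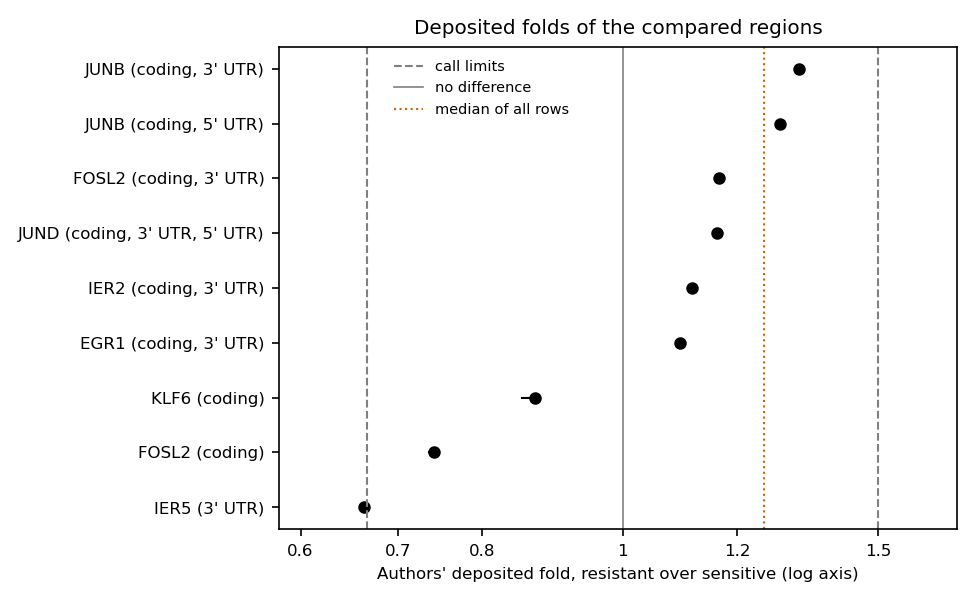
Authors' deposited fold of resistant over sensitive cells (log axis) for the 9 compared regions of these genes; points are medians over isoforms, lines the range over isoforms, dashed lines the call limits and the dotted line the median of all rows, 1.25. The points lie between 0.663 and 1.32; the IER5 point is past the lower limit but has a p of 0.132.

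Other genes of the same response were read from 3 lists, chosen like the 10 genes with earlier results of these data known. Of 33 other AP-1 and bZIP partners, 18 were compared. A region called higher was found in 4 and a region called lower in 1, beside 14.2% and 2.76% of all genes compared. FOSB, MAFK and CREB5 were among those with a region called higher. FOSB, the FOS family member nearest to FOS in function, was covered over 1835, 1481 and 1856 bases in resistant libraries and 413, 375 and 684 in sensitive libraries. Its row with the smallest p stood at 1.88 in the authors' deposited table (deposited p = 1.05e-09), and 15 of its 17 rows were called higher. The small MAF factor MAFK stood at 1.54 (deposited p = 5.01e-12) and CREB5, with peaks in the 3 resistant libraries alone, at 1.91 (deposited p = 0.0224) in the authors' deposited table. After division of every fold by the median, FOSB and CREB5 were still called higher and MAFK was not called. The list then had 3 genes called higher and 2 lower, beside 5.26% and 7.35% of all genes. With p adjusted by Benjamini-Hochberg over all rows of the table and folds as deposited, FOSB and MAFK were still called and CREB5, at an adjusted p of 0.0656, was not. That left 2 genes of the list called higher and 1 lower, beside 8.84% and 1.31% of all genes.

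Of 50 other immediate early genes, 28 were compared, 5 had a region called higher and 0 a lower one, beside 14.2% and 2.76% of all genes compared. In the authors' deposited table, the nuclear receptor NR4A1 stood at 1.74 (deposited p = 2.88e-09) and the CBP-binding factor CITED2 at 1.55 (deposited p = 5.89e-06). PPP1R15A, a phosphatase subunit of the stress response, stood at 1.62 (deposited p = 0.000209) and MIDN, which hands early gene products to the proteasome, at 1.58 (deposited p = 0.0151) in the authors' deposited table. The last of the 5 was the anti-apoptotic BCL2 relative MCL1, named after its values were seen, at 1.65 (deposited p = 0.0240) in the authors' deposited table. Divided by the median fold, 0 of these genes were called higher and 2 lower, beside 5.26% and 7.35% of all genes. With p adjusted by Benjamini-Hochberg over all rows, 3 were called higher, beside 8.84% of all genes; MIDN, at 0.0511, and MCL1, at 0.0687, missed the limit. The median over genes was 1.38, beside 1.25 over all genes compared.

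Of 33 genes upstream of JUN and FOS, 22 were compared, 4 had a region called higher and 1 a region called lower, beside 14.2% and 2.76% of all genes compared. The JNK scaffold MAPK8IP3 stood at 2.97 in the authors' deposited table (deposited p = 0.00151), with overlapping peaks in 3 resistant and 0 sensitive libraries. The JNK-activating kinase MAP2K7 stood at 2.36 (deposited p = 0.0141) in the authors' deposited table, in a region with a peak in 1 resistant library. FBXW7, the ubiquitin ligase subunit that targets JUN, had 2 of its 9 rows called higher. The one with the smallest p stood in the authors' deposited table at the limit of 1.5 (deposited p = 0.0145). RPS6KA1, an ERK-activated kinase named after its values were seen, stood at 1.58 (deposited p = 0.0257) in the authors' deposited table. MAP3K4, a kinase above JNK and p38, was lower, at 0.566 in the authors' deposited table (deposited p = 0.00741), with all 4 of its rows called. With every fold divided by the median, 3 of these genes were called higher and 1 lower, beside 5.26% and 7.35% of all genes. RPS6KA1 was not called at that setting. With p adjusted by Benjamini-Hochberg over all rows, 3 were called higher and 1 lower, beside 8.84% and 1.31% of all genes; RPS6KA1, at 0.0720, missed the limit.

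Covered bases had separate ranges, higher in resistant libraries, for 10 of 26 partners with a peak, 16 of 36 other immediate early genes and 6 of 27 upstream genes, beside 17.9% of all genes. They were lower for 0 in each list, beside 4.47% of all genes. As a check of the labelled cells, 11 of 11 luminal and ERBB2-amplicon markers had a peak. Of these markers, 6 had separate ranges with more bases in resistant libraries and 1 with fewer. GRB7, a neighbour of ERBB2, was covered over 128, 209 and 179 bases in resistant libraries and had no peak in any sensitive list. GATA3, a luminal transcription factor, was covered over 143, 0 and 293 bases in resistant libraries, against 1146, 1092 and 1055 in sensitive libraries. Of 12 markers of other cell types, 2 had one: the collagen gene COL1A1 in all 6 libraries and the vimentin gene VIM in 1 library of each line. The part of such markers in these results was not tested.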

How the data were processed

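Used here were 6 m6A peak lists, 1 for each IP library, and the 3 comparison tables; input reads were not analysed here. The submitters' processing notes list HISAT2, a read aligner, without its role. Which peak caller and genome build were used, and how replicates entered the comparison, is not given in the sources used here. Per the file headers, the authors give each peak a fold enrichment, a linear ratio, and a p-value; whether it was adjusted is not stated. The comparison tables hold no values per library, so the authors' fold and p stand without a count model; their calls were checked against the limits of 1.5, 0.667 and 0.05 and matched.

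Sheets named s1 to s3 were taken as the sensitive libraries with titles HS-1 to HS-3. Rows, listed once per isoform, were joined where they share at least 1 exonic base, and covered bases are the union over isoforms. Positions count from 1, in the files' own build; promoter positions are GRCh38.p14 and cannot be set against them. Lines were compared with an exact permutation test, two-sided, adjusted by Benjamini-Hochberg over all genes (Python 3.11.15, numpy 2.4.6, pandas 2.3.3). The interval code was tested on simulated data. Members and lists were chosen with earlier results of these data known. All 10 genes are named, with up to 4 called genes per list by smallest p; 1 further called gene is not reported here. Alternatives covered peak thresholds, list length, replicates, isoforms, scaling and the overlap limit.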

Additional observations from a re-analysis of the deposited data

How the results depend on the processing

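Depth is unknown, so a peak missing from a list was not detected there and need not be absent. Leaving out each library in turn gave 6 to 7 genes with more bases in resistant cells and 1 to 1 with fewer. With a library left out, 21.3% to 26.7% of all genes had separate ranges with more bases and 6.13% to 8.16% with fewer. The difference in the mean number of the 10 genes with a peak was 1 to 1. With a peak asked for in at least 2 libraries of a single line and fewer than 2 of the other, the counts changed little. There was 1 to 1 gene in resistant and 0 to 0 in sensitive cells. EGR1 joined the genes with more bases without resistant replicate 3 or sensitive replicate 2, and at a p below 1e-05, and IER5 without resistant replicate 2. At a fold enrichment of at least 5, 4 genes (JUN, JUND, EGR1 and IER2) had more bases in resistant cells and 0 had fewer. The shares of all genes were 11.1% and 2.67%. The FOSL2 difference turned to 44 bases. The mean number of genes with a peak was 6.33 in resistant and 4.33 in sensitive libraries, a difference of 2. JUND and EGR1 were the 2 genes with a peak in at least 2 resistant and fewer than 2 sensitive libraries. EGR1 kept a 5′ UTR peak in sensitive replicate 2, with a fold enrichment of 14.8. The share of all genes with that pattern was not counted at this setting. FOS, ATF3 and KLF6 had no peak that high. At a p below 1e-05 the difference in genes with a peak was 0.667, and ATF3 no longer had separate ranges. At that p, 6 genes had more bases in resistant cells and 1 had fewer, beside 18.5% and 4.02% of all genes. Counted as merged regions, 1 gene (ATF3) was higher in resistant cells, beside 4.36% of all genes, and 1 (FOSL2) was lower, beside 1.46%. Counted as peak rows, the same 1 gene was higher and 1 lower, beside 6.14% and 1.93% of all genes. With folds divided by their median, FOSL2 made 1 gene called lower, and 1 with the p also adjusted, a setting chosen after seeing the data; the log2 folds became -0.19 for EGR1, -0.16 for IER2 and -0.11 for JUND. Lists cut to equal length, and the longest transcript alone (chosen after seeing the data), gave the same 6 and 1 genes. The shares of all genes were 15.5% and 5.51% at equal length and 16.5% and 4.2% on the longest transcript. Replicate numbers carry no stated pairing: deviations of same-numbered libraries had r = -0.0313, -0.0658 and -0.0836, and no library correlated best with its own number. With a replicate block, all 3 pairs leaned one way for 7 genes higher and 1 lower, beside 25.8% and 7.47% of all genes. The smallest p with such a block is 0.25. Leaving out libraries was not possible for the deposited comparison, which holds no values per library.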

Other observations

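For KLF6, p-values and fold enrichments of the same peak did not move together. Its coding peak had p of 5.01e-34, 1e-27 and 3.16e-37 in resistant lists and 2e-11, 5.89e-10 and 1.26e-09 in sensitive lists, while the authors' fold enrichments were 3.08, 2.93 and 3.21 in resistant and 3.6, 3.99 and 3.73 in sensitive lists. The KLF6 3′ UTR peak did the same, with folds of 2.32, 2.38 and 2.06 in resistant and 3.78, 2.75 and 2.96 in sensitive lists. FOS had folds of 2.64, 2.12 and 3.19 in resistant lists over the wider stretch and 3.54, 3.44 and 3.81 in sensitive lists over the narrower one. The reads of these peaks were not analysed here. EGR1 differed from them, with folds of 5.96, 4.39 and 5.93 in resistant and 4.02, 4.28 and 3.55 in sensitive lists for its coding region. These folds come from separate lists and were not tested against each other.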
